A study of Mus musculus with 10 samples.

Results

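The genes described here handle glycogen, the branched glucose store of cells. They were the glycogen-targeting regulatory subunits of protein phosphatase 1 (Ppp1r3b, Ppp1r3c, Ppp1r3d, Ppp1r3e and Ppp1r3f), glycogen synthase (Gys1), the branching enzyme (Gbe1) and the phosphorylases named after brain (Pygb) and muscle (Pygm). These 9 genes of the 54838 gene identifiers in the count tables were found by their GRCm38 symbols. They were chosen with the dorsal-ventral difference of Ppp1r3b in these same libraries already known, so their differences between the groups are given as values without p-values, and how many of them met the call thresholds is printed once for reference. Of the 9 genes, 8 passed the filter on low values (CPM, counts scaled to a common library size, above 1 in 2 or more libraries), and Ppp1r3d did not.

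Translating ribosome affinity purification (TRAP), in which RNA is precipitated on tagged ribosomes, was used on the hippocampus of male mice about 10 weeks old. The mice were C57BL/6 and carried Drd2-Cre and the Cre-dependent allele Eef1a1 LSL.eGFPL10a/+, which tags ribosomal protein L10a with green fluorescent protein. Both groups shared this genotype and differed only in the piece of hippocampus taken. There were 5 dorsal and 5 ventral libraries, each made from the pooled tissue of 5 mice. The dorsal piece was the shorter one, and the ventral subiculum was removed. The authors cut each hippocampus into both pieces, so dorsal and ventral pools can hold the same mice. Which dorsal pool matches which ventral pool is not stated. Drd2-Cre tags mossy cells, the excitatory neurons of the dentate hilus, but also other hippocampal cells that express Drd2, and RNA of untagged cells can be carried along, so the libraries are enriched for mossy cells and are not pure.

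Glycogen is built from UDP-glucose by glycogen synthase and the branching enzyme, and glucose is released from it by glycogen phosphorylase. Phosphorylation switches the pair in opposite directions: it activates phosphorylase and inhibits the synthase. Protein phosphatase 1 reverses both, and its PPP1R3 subunits bring it to the glycogen particle, each subunit with its own tissue preference. In the brain most glycogen is held by astrocytes, and neurons have the machinery at low levels.

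The 10 libraries held 11138676 to 20594364 counts on genes, and 3 counts, taken as the floor of detection, corresponded to 0.146 to 0.269 CPM. This floor covers counting error alone, because the RNA was amplified and reads were counted without molecular identifiers. Across all 16806 tested genes, 25.5% were called different between the groups by edgeR's quasi-likelihood test (called genes have an adjusted p under 0.05, and their group means of CPM + 1 differ by more than 0.58 on the log2 scale), 15.7% higher in dorsal and 9.85% higher in ventral libraries. The dorsal and ventral libraries did not overlap at all for 18.2% of genes, 9.81% with the dorsal and 8.36% with the ventral libraries on top. Read pairs that the counting assigned to no feature are called pairs outside genes here, although they can include pairs from introns. Their share was taken over pairs assigned to a gene, to no feature or ambiguously. This share also separated the groups (exact permutation test, two-sided, p = 0.00794). It was 27.0% ± 5.09 (SD, n = 5) in dorsal and 14.4% ± 3.0 (SD, n = 5) in ventral libraries. In bulk precipitates of this kind, fewer cells of a type and less RNA per cell cannot be told apart.

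Among the 8 tested glycogen genes, the targeting subunits had higher mean levels in dorsal libraries, while the synthase, the branching enzyme and both phosphorylases had higher mean levels in ventral libraries. Ppp1r3b had by far the widest difference, 29.6-fold between the group means, and Ppp1r3e was 2.40-fold higher in dorsal libraries. On the other side, Pygb was 1.47-fold and Pygm 2.19-fold higher in ventral libraries. Of the 8 genes, 2 met the call threshold (Ppp1r3b and Ppp1r3e, both higher in dorsal) beside 25.5% of all genes, and nothing is read from that count because this contrast chose the genes. The count was 4 without dorsal replicate 2 and also without ventral replicate 2, when both phosphorylases joined, and 0 with the share outside genes as a covariate. The median log2 fold change of the 8 genes was -0.0028, beside -0.0044 over all tested genes.

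**Figure D1:**
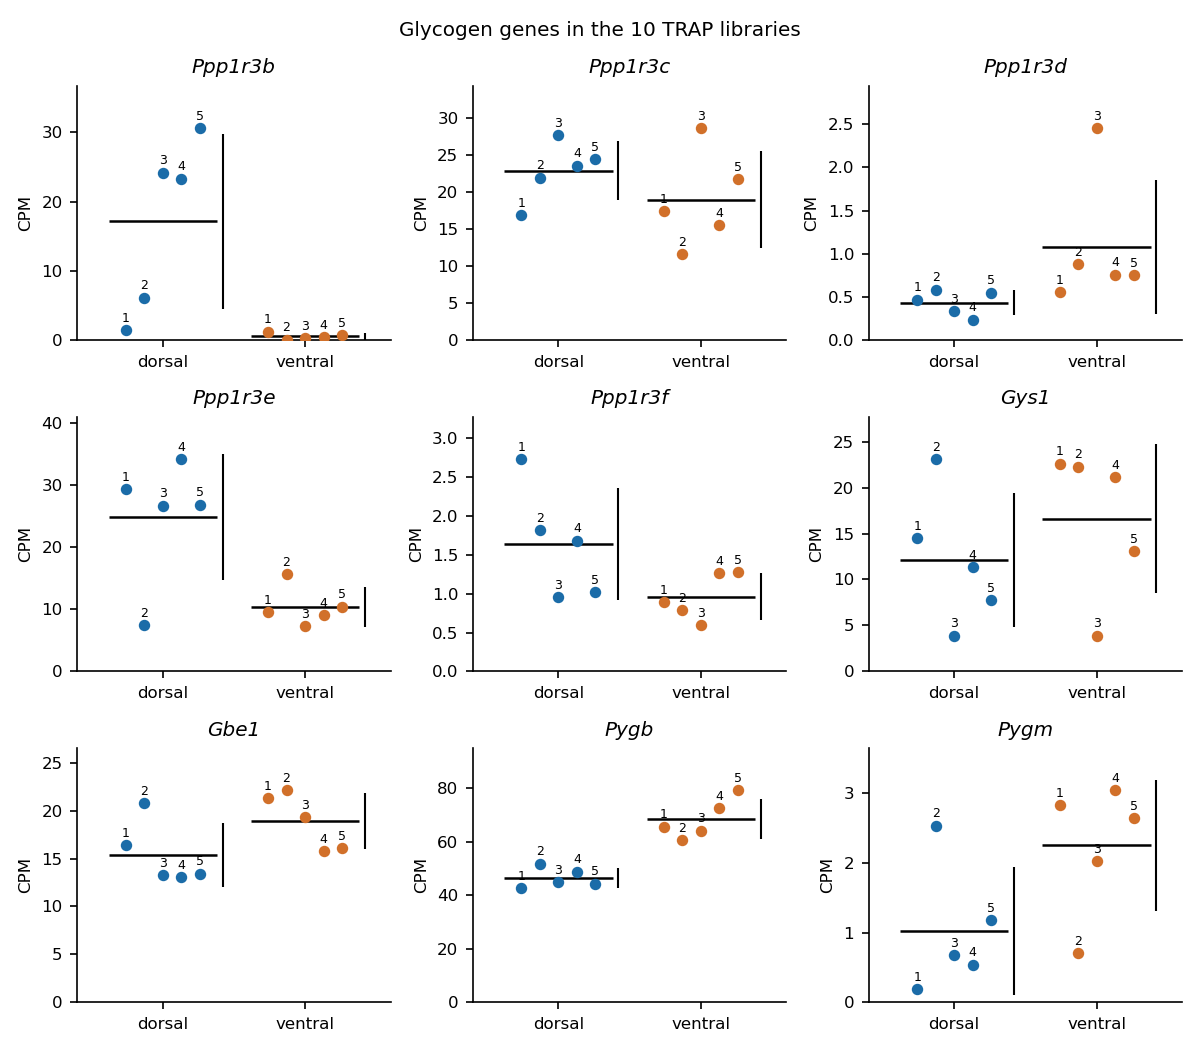
Levels of the 9 glycogen genes in CPM (vertical axes, linear from 0, scaled per gene) in the 5 dorsal (blue) and 5 ventral (orange) libraries. Numbers beside points are the replicate numbers, horizontal lines are group means and vertical lines are ± 1 SD. Dorsal and ventral points do not overlap for Ppp1r3b (dorsal above) and Pygb (ventral above), and they overlap for the other 7 genes.

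Ppp1r3b encodes the subunit also known as GL, best known from liver, where it brings protein phosphatase 1 to glycogen and activates the synthase. It is ENSMUSG00000046794 at chr8:35375739-35388139 on the plus strand of GRCm38, and its exons overlap no exon of another annotated gene. The 5 dorsal libraries gave 1.51, 6.17, 24.2, 23.3 and 30.6 CPM, in the order of replicates 1 to 5. The 5 ventral libraries gave 1.28, 0.088, 0.338, 0.443 and 0.755 CPM.

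Every dorsal library was therefore above every ventral one, but the margin was narrow at one end: dorsal replicate 1 (16 counts) was close to ventral replicate 1 (23 counts, from a deeper library). In ventral replicate 2 the gene had 1 count, under the floor of 0.258 CPM of that library. Within the dorsal group the highest library was 20.3 times the lowest, a wider spread than for any other of the 9 genes, and replicates 3, 4 and 5 lay well above replicates 1 and 2. The log2 fold change of dorsal over ventral was 4.74 (SE 0.74), and leaving out single libraries gave 4.48 (without dorsal replicate 5) to 5.21 (without ventral replicate 1).

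The share of read pairs outside genes was 21.8%, 29.1%, 33.9%, 22.2% and 28.0% in dorsal replicates 1 to 5 and 11.6%, 13.4%, 19.3%, 14.7% and 12.7% in ventral replicates 1 to 5. It was above the whole ventral range in every dorsal library, as Ppp1r3b was. With that share as a covariate the log2 fold change of Ppp1r3b was 4.03 (SE 1.24).

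The non-coding neighbours of Ppp1r3b were at or near 0. Gm45469, a non-coding gene whose annotated span overlaps the start of Ppp1r3b on the other strand, had 1 count over all 10 libraries, and the non-coding genes Gm45301 and Gm34853 had 0. Eri1, which encodes an exoribonuclease and is the remaining annotated gene within 100 kb, averaged 29.4 ± 3.21 CPM (SD, n = 5) in the dorsal group and 41.0 ± 13.2 CPM (SD, n = 5) in the ventral group (edgeR adjusted p = 0.0768).

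Ppp1r3e encodes another targeting subunit of the family. It is ENSMUSG00000072494 at chr14:54872669-54877550 on the minus strand. Dorsal replicates 1 to 5 had 29.4, 7.47, 26.7, 34.2 and 26.9 CPM, and ventral replicates 1 to 5 had 9.54, 15.7, 7.26, 9.05 and 10.4 CPM. Dorsal replicate 2 lay inside the ventral range, and the other 4 dorsal libraries were above all 5 ventral ones. Its log2 fold change was 1.27 (SE 0.32), and leaving out single libraries gave 1.11 (without dorsal replicate 4) to 1.52 (without dorsal replicate 2). With the share outside genes as a covariate it was 1.94 (SE 0.58).

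Ppp1r3c encodes PTG, a subunit found in muscle, liver and astrocytes among other tissues, which binds the phosphatase, the synthase and phosphorylase. It is ENSMUSG00000067279 at chr19:36731731-36736653 on the minus strand. Its dorsal levels were 16.8, 21.9, 27.6, 23.5 and 24.4 CPM and its ventral levels 17.4, 11.6, 28.5, 15.5 and 21.7 CPM, in replicate order. The dorsal range lay wholly inside the ventral one. Dorsal over ventral, the log2 fold change was 0.28 (SE 0.21), and it was -0.34 (SE 0.38) with the share outside genes as a covariate.

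Ppp1r3d and Ppp1r3f were near the floor. Ppp1r3d (ENSMUSG00000049999, chr2:178411206-178414472, minus strand) encodes a targeting subunit found in many tissues. It had 4 to 9 counts in the dorsal libraries (0.240 to 0.585 CPM) and 10 to 29 counts in the ventral ones (0.555 to 2.45 CPM). Ventral replicate 3 was the only library over 1 CPM, and the lowest ventral library lay inside the dorsal range.

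Ppp1r3f (ENSMUSG00000039556, chrX:7557296-7574283, minus strand) encodes a subunit with a membrane anchor. It had 2.73, 1.82, 0.954, 1.68 and 1.02 CPM in the dorsal and 0.888, 0.792, 0.591, 1.27 and 1.27 CPM in the ventral libraries, in replicate order. Of these dorsal values, 3 were above the whole ventral range, and the log2 fold change was 0.66 (SE 0.42). Its level is uncertain, since 52.9% of its exonic length is shared with Flicr, Foxp3 and Gm36995 and the counting is not stated to use strand.

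Levels of different genes can be compared only per length, so CPM was divided by the exonic length of each gene in kb. The 5 targeting subunits summed to 21.5 ± 5.83 CPM per kb (SD, n = 5) in dorsal and 11.7 ± 1.78 CPM per kb (SD, n = 5) in ventral libraries. Dorsal replicate 2, at 12.5 CPM per kb, lay inside the ventral range of 9.84 to 14.3 CPM per kb. Ppp1r3c and Ppp1r3e made up most of the sum in every library. Ppp1r3b contributed 11.7% of it in dorsal libraries, with a range of 1.29% to 19.7%, and 0.820% in ventral libraries, with a range of 0.129% to 1.91%. The lowest dorsal share therefore lay inside the ventral range. Ppp1r3c contributed 41.2% ± 13.2 (SD, n = 5) in dorsal and 58.4% ± 12.4 (SD, n = 5) in ventral libraries, and Ppp1r3e 44.6% ± 14.2 and 36.4% ± 13.2, so that neither share separated the groups.

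**Figure D2:**
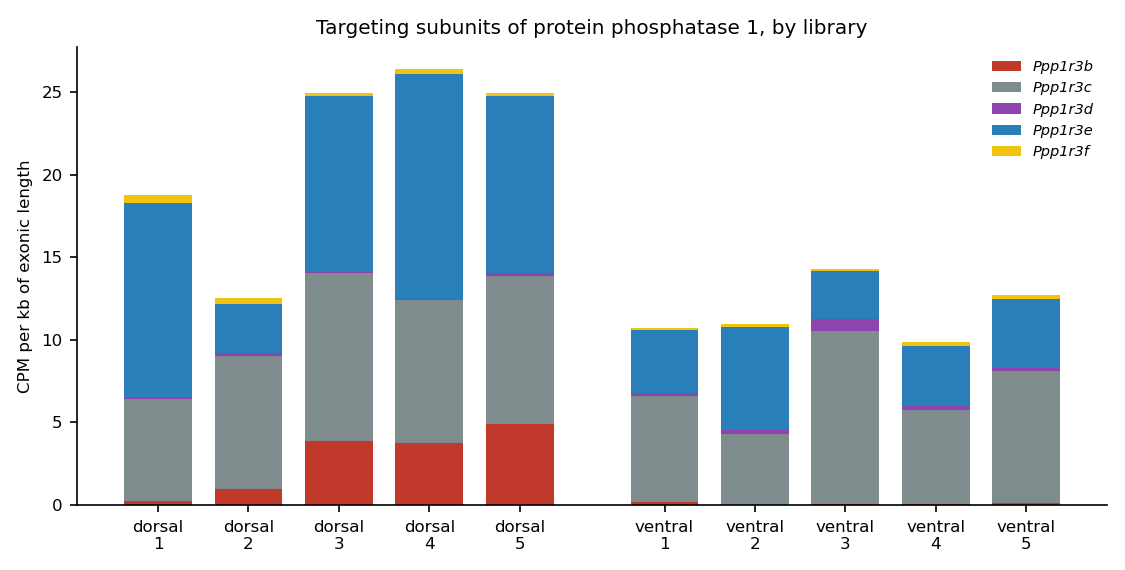
Summed level of the 5 targeting subunits in each library, in CPM per kb of exonic length (vertical axis, linear from 0). Each bar is 1 library and its colours are the genes. Ppp1r3b (red, at the foot of the bars) is visible in dorsal replicates 2 to 5 and reaches 19.7% of the bar in dorsal replicate 5, while it stays at 1.91% or less in the ventral libraries.

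Gys1 encodes the glycogen synthase of muscle and brain and is ENSMUSG00000003865 at chr7:45434844-45456619 on the plus strand, with 6.47% of its exonic length shared with Ruvbl2. Dorsal replicates 1 to 5 gave 14.5, 23.1, 3.88, 11.4 and 7.78 CPM, and ventral replicates 1 to 5 gave 22.6, 22.3, 3.88, 21.1 and 13.1 CPM. The groups overlapped over nearly their whole range, and replicate 3 was the lowest library in each. Dorsal over ventral, Gys1 had a log2 fold change of -0.46 (SE 0.42). It ranged from -0.87 (without dorsal replicate 2) to -0.22 (without dorsal replicate 3) when single libraries were left out and was 0.84 (SE 0.84) with the share outside genes as a covariate, so its sign changed with that setting.

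Gbe1, the branching enzyme, adds the side branches of the glycogen particle. It is ENSMUSG00000022707 at chr16:70313949-70569716 on the plus strand. Its levels were 16.4, 20.8, 13.3, 13.0 and 13.4 CPM in dorsal and 21.3, 22.1, 19.3, 15.8 and 16.1 CPM in ventral libraries, in replicate order. Dorsal replicates 3, 4 and 5 were below all ventral libraries, and replicates 1 and 2 were among them, for a log2 fold change of -0.28 (SE 0.18).

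Pygb encodes the brain isoform of glycogen phosphorylase, the enzyme that releases glucose 1-phosphate from glycogen. It is ENSMUSG00000033059 at chr2:150786735-150831758 on the plus strand. The dorsal libraries had 42.7, 51.7, 44.8, 48.8 and 44.2 CPM and the ventral libraries 65.5, 60.4, 64.0, 72.5 and 79.1 CPM, in replicate order. All ventral libraries were above all dorsal ones, and the spread within each group was the smallest among the 9 genes, with the highest library 1.21 times the lowest in dorsal and 1.31 times in ventral. The log2 fold change was -0.56 (SE 0.12), and it was -0.60 (without dorsal replicate 2) to -0.49 (without ventral replicate 5) when single libraries were left out.

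Pygm, the muscle isoform, known in the brain mainly from astrocytes, is ENSMUSG00000032648 at chr19:6384399-6398459 on the plus strand. It was low throughout, with 0.188, 2.53, 0.681, 0.541 and 1.18 CPM in dorsal and 2.83, 0.704, 2.03, 3.04 and 2.64 CPM in ventral libraries, in replicate order. Dorsal replicate 1 was under its floor of 0.269 CPM. Of the ventral libraries, 4 were above 4 of the dorsal ones, and dorsal replicate 2 and ventral replicate 2 each lay within the other group's range. The log2 fold change was -1.15 (SE 0.51), and it ranged from -1.84 (without dorsal replicate 2) to -0.94 (without dorsal replicate 4) when single libraries were left out.

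Per kb of exonic length, Pygm was 3.03% ± 2.41 (SD, n = 5) of the sum of both phosphorylases in dorsal and 4.59% ± 1.74 (SD, n = 5) in ventral libraries. Pygb was thus the main phosphorylase message in all 10 libraries, and the share of Pygm did not separate the groups.

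Ordered by level per kb in dorsal libraries, Ppp1r3e (9.93 CPM per kb), Pygb (9.66) and Ppp1r3c (8.39) came first, and their libraries overlapped. Gbe1 (2.87), Ppp1r3b (2.76) and Gys1 (2.53) followed as a group whose libraries overlapped with each other but did not reach those of Ppp1r3c above. The lowest library of Ppp1r3e (2.98 CPM per kb), however, lay inside the range of each of them. The libraries of Gys1 stayed above those of Ppp1r3f, while those of Ppp1r3b, with the widest range, reached into them. Ppp1r3f, Pygm and Ppp1r3d came last, at 0.318, 0.318 and 0.134 CPM per kb. In ventral libraries Pygb stood alone at the top with 14.2 CPM per kb, without overlap with Ppp1r3c (6.96). Ppp1r3e (4.14), Gbe1 (3.53) and Gys1 (3.46) came next with overlapping libraries, then Pygm (0.699), Ppp1r3d (0.330), Ppp1r3f (0.187) and, last of the 9, Ppp1r3b (0.0933). Ppp1r3b thus held rank 5 among the dorsal levels and rank 9 among the ventral ones.

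Dorsal replicate 2 stood apart in several of these genes. Within the dorsal group it had the highest level of Gys1, Gbe1, Pygb, Pygm and Ppp1r3d and the lowest of Ppp1r3e, and for the liver phosphorylase Pygl it had 7.08 CPM where the other 4 dorsal libraries had 0.901 to 1.69 CPM.

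The other genes of glycogen metabolism were taken from a list of 38 genes by role, of which 37 were tested. Higher levels in dorsal libraries were called for 2 of them and in ventral libraries for 1, together 8.11% of the 37, beside 25.5% of all genes. Without the fold threshold, 3 were higher in dorsal and 7 higher in ventral libraries at an adjusted p below 0.05 by edgeR, together 27.0% beside 33.6% of all genes (19.0% higher in dorsal and 14.6% in ventral). The log2 fold change was negative for 28 of the 37 genes, with a median of -0.10 beside -0.0044 over all tested genes. The share of all tested genes with a negative value was not counted. Under the alternatives run, 22 (with the share outside genes as a covariate) to 28 genes of the list were negative, and the median was -0.19 to -0.039.

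Phosphorylase kinase, the enzyme that switches phosphorylase on, held both genes called higher in dorsal libraries. Phkg1, its catalytic subunit in muscle, with 9.68% of its exonic length shared with Sumf2, had 2.16, 5.91, 3.41, 3.78 and 3.30 CPM in dorsal and 0.721, 1.76, 1.35, 0.759 and 1.51 CPM in ventral libraries, in replicate order. All dorsal libraries were above all ventral ones, and the log2 fold change was 1.68 (SE 0.38, edgeR adjusted p = 0.0050). Phka1, a regulatory subunit, had 25.3, 24.0, 45.8, 32.7 and 41.0 CPM in dorsal and 9.93, 17.7, 27.4, 15.9 and 18.8 CPM in ventral libraries. Only ventral replicate 3 reached into the dorsal range, and the log2 fold change was 0.95 (SE 0.25, edgeR adjusted p = 0.0102).

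Phka2, Phkb and Phkg2, and the calmodulin genes Calm2 and Calm3, had log2 fold changes of -0.28 to 0.16 and did not pass the test. With the share outside genes as a covariate, neither call held: Phkg1 had a log2 fold change of 1.27 (SE 0.74, edgeR adjusted p = 0.314) and Phka1 one of 0.11 (SE 0.41, edgeR adjusted p = 0.901).

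The kinases acting upstream of synthase and of phosphorylase kinase moved in both directions. Prkacb, a catalytic subunit of protein kinase A, was the only gene of the list called higher in ventral libraries. It had 461, 464, 353, 409 and 397 CPM in dorsal and 803, 682, 614, 674 and 662 CPM in ventral libraries, without overlap. Its log2 fold change was -0.72 (SE 0.10, edgeR adjusted p = 0.000253), and -0.42 (SE 0.18, edgeR adjusted p = 0.183) with the share outside genes as a covariate.

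At an adjusted p below 0.05 but under the fold threshold, Prkaca, the other protein kinase A subunit listed, was also higher in ventral libraries, with means of 236 and 177 CPM (log2 fold change -0.42, SE 0.12, edgeR adjusted p = 0.0158). The catalytic subunits of AMP-activated kinase differed in direction. Prkaa1 was higher in dorsal libraries, with means of 65.6 and 49.9 CPM (log2 fold change 0.40, SE 0.12, edgeR adjusted p = 0.0244). Prkaa2 was higher in ventral libraries, with means of 172 and 118 CPM (log2 fold change -0.55, SE 0.12, edgeR adjusted p = 0.00395), and neither gene's libraries overlapped between the groups.

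Prkag1, a regulatory subunit of the same kinase, and Gsk3a, a kinase that inhibits glycogen synthase, were higher in ventral libraries as well, with log2 fold changes of -0.55 (SE 0.16, edgeR adjusted p = 0.0206) and -0.36 (SE 0.11, edgeR adjusted p = 0.0283). Both are uncertain, since 43.7% of the exonic length of Prkag1 is shared with B130046B21Rik and 28.3% of that of Gsk3a with 9130221H12Rik. The other 4 kinase genes of the list, Gsk3b, Prkab1, Prkab2 and Prkag2, did not pass the test.

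Of the phosphatase itself, Ppp1ca, a catalytic subunit, was higher in ventral libraries, with means of 102 and 73.8 CPM and no overlap between groups (log2 fold change -0.46, SE 0.11, edgeR adjusted p = 0.00523), but under the fold threshold and with 16.5% of its exonic length shared with other genes. The catalytic subunits Ppp1cb and Ppp1cc and the inhibitors Ppp1r1a and Ppp1r2 had log2 fold changes of -0.10 to 0.01 and did not pass. Of the targeting subunits outside the 9 genes, Ppp1r3g averaged 1.25 CPM in the dorsal and 1.65 CPM in the ventral group (log2 fold change -0.57, SE 0.48) and did not pass. Ppp1r3a, the subunit of skeletal muscle, had 1 count in each group and was not tested.

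Liver glycogen synthase Gys2 and liver phosphorylase Pygl had means of 2.74 and 2.46 CPM in dorsal and 3.01 and 4.22 CPM in ventral libraries, and neither passed the test. Gyg, which primes glycogen, and Ugp2, Pgm1, Pgm2 and Pgm2l1, listed in the same role group, did not pass either. Among them Pgm2 had the widest difference, with means of 2.45 and 5.14 CPM (log2 fold change -0.99, SE 0.38, edgeR adjusted p = 0.0552). Of the genes for glycogen quality control and lysosomal breakdown, Epm2aip1, which encodes a partner of laforin, averaged 457 CPM in the dorsal group and 595 CPM in the ventral group (log2 fold change -0.38, SE 0.14, edgeR adjusted p = 0.0437). That log2 fold change was 0.043 with the share outside genes as a covariate, and Epm2a, Nhlrc1, Stbd1 and Gaa did not pass the test.

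**Figure D3:**
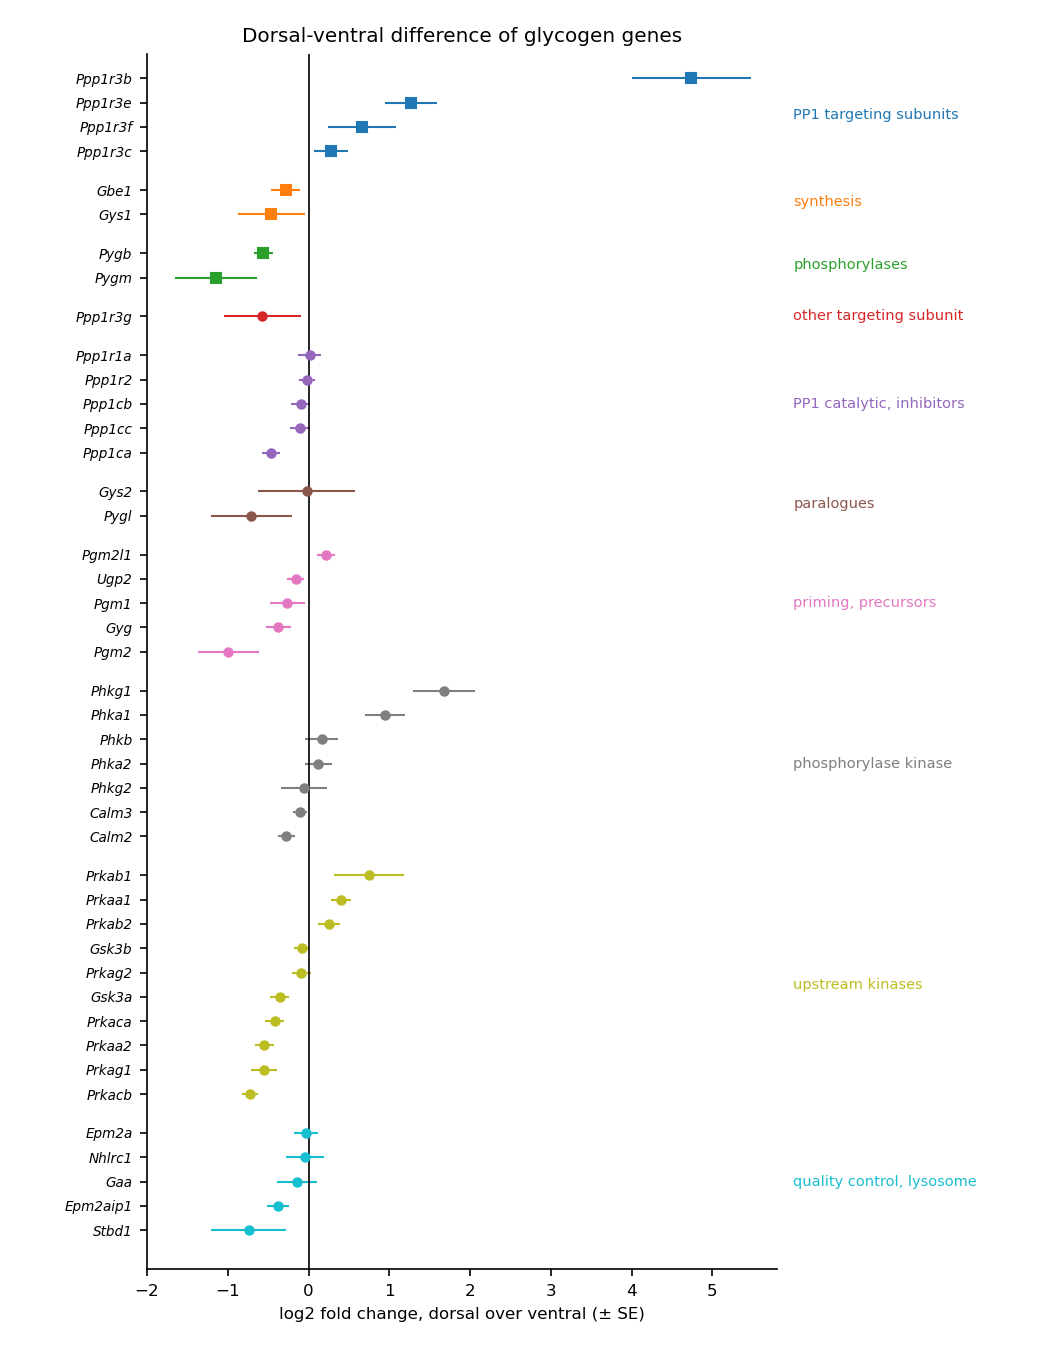
Log2 fold change of dorsal over ventral libraries (horizontal axis, ± SE) for the 8 tested glycogen genes (squares) and 35 of the 37 other tested genes of the pathway (circles), grouped and coloured by role. Ppp1r3b stands at 4.74, the other genes lie between -1.15 and 1.68, and both synthesis genes and both phosphorylases are below 0.

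The genes whose levels were most like those of Ppp1r3b were sought among 10607 tested genes with a mean of at least 5 CPM, by Pearson's r of log2(CPM + 1). These are descriptions over 10 points, each a library with its own group, amplification and depth. The genes named are the highest of 10607, so an order of libraries shared with Ppp1r3b follows largely from the choice. Within groups, r rests mostly on the dorsal libraries, since ventral levels of Ppp1r3b spanned only 0.088 to 1.28 CPM. Across the 10 libraries the 5 most alike were 2900060N12Rik (r = 0.971), Ntn4 (0.970), Itgav (0.966), Coro7 (0.959) and Tmem50a (0.955). Ntn4, which encodes the secreted guidance and basement membrane protein netrin 4, had 4.42, 8.51, 20.3, 12.4 and 18.0 CPM in dorsal libraries and 2.83 to 3.78 CPM in ventral ones. As with Ppp1r3b, its dorsal replicates 1 and 2 were the lowest of the dorsal group.

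When the group means were removed, so that only the spread within groups counted, the 5 most alike were Rmnd1 (r = 0.957), Gamt (0.937), Nol6 (0.936), Men1 (0.932) and Dhrs3 (0.929). In each of these, dorsal replicate 1 was the lowest and dorsal replicate 2 the next lowest of the dorsal libraries. Gamt, the enzyme that completes creatine synthesis, had 1.79, 4.22, 6.75, 6.55 and 5.74 CPM in dorsal libraries, and its mean was higher in ventral ones (6.84 against 5.01 CPM). Of the other glycogen genes, Ppp1r3c had r = 0.587 across the libraries and 0.487 within groups, and Ppp1r3e 0.654 and 0.209. For Pygb the values were -0.729 and 0.150, for Gbe1 -0.712 and -0.546, and for Gys1 -0.409 and -0.382.

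**Figure D4:**
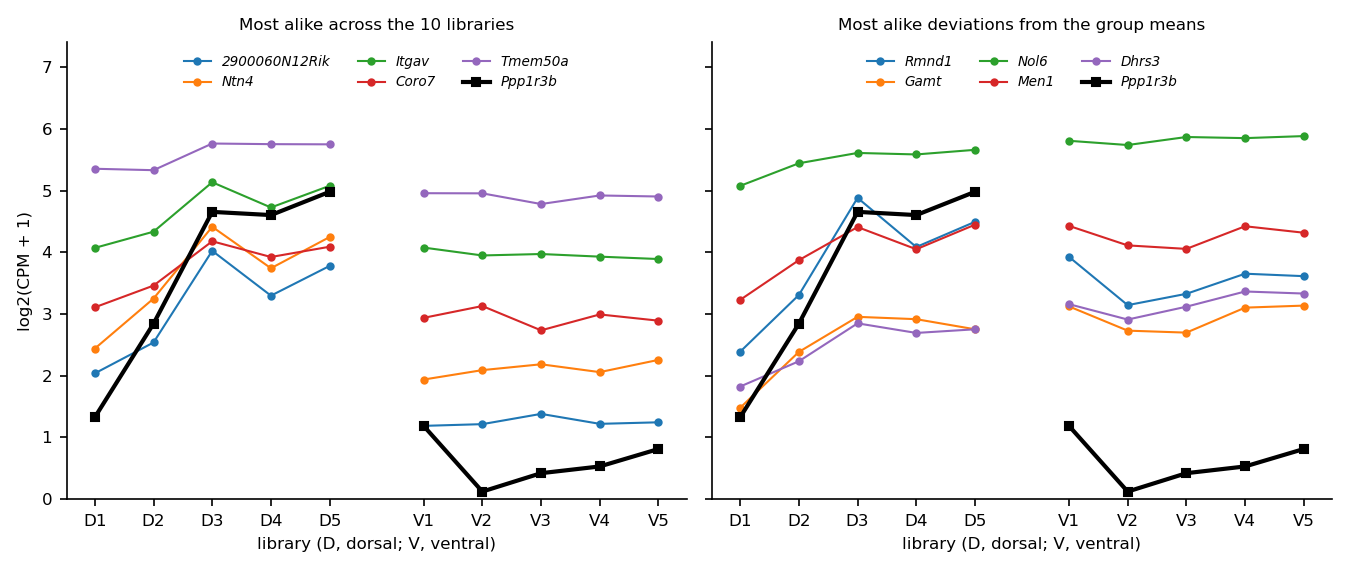
Level of Ppp1r3b (black squares) and of the 5 genes most like it across the 10 libraries (left) and in deviations from the group means (right), as log2(CPM + 1) on the vertical axis, in dorsal (D1 to D5) and ventral (V1 to V5) libraries. Lines join the points of a gene and mark no order among replicates. On the left, dorsal replicates 3, 4 and 5 lie above replicates 1 and 2 for all 6 genes, and on the right replicate 1 is the lowest dorsal library of each gene.

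The summed astrocyte and oligodendrocyte markers separated the groups, and the sums of the other lists overlapped. Their counts of called genes stand beside 25.5% of all genes. The mossy cell markers summed to 1771 to 2036 CPM in dorsal and 1817 to 2131 CPM in ventral libraries, with 4 of 8 tested genes called higher in dorsal and 2 in ventral, among them Calb2 (calretinin, a marker of ventral mossy cells) at 65.2 against 616 CPM. Drd2, whose promoter drives the Cre, had means of 28.1 and 20.7 CPM. The gene of this list with the highest CPM, the glutamate receptor subunit Gria2, had means of 1143 and 651 CPM, while Satb1 had 270 and 450 CPM. Opposite differences thus met in the mossy cell sum, and its overlap between groups does not show an equal content of mossy cells. The 14 astrocyte markers summed to 2510 to 2852 CPM in dorsal and 1278 to 2031 CPM in ventral libraries, without overlap, with 5 called higher in dorsal and 1 in ventral. The astrocyte marker with the highest CPM, the glutamate transporter Slc1a2, had means of 1774 and 870 CPM. Without it the ranges were 846 to 994 and 680 to 1004 CPM and overlapped.

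The 10 oligodendrocyte markers summed to 2672 to 3192 CPM in dorsal and 1036 to 1961 CPM in ventral libraries, with 5 called higher in dorsal. Interneuron markers summed to 3584 to 4613 and 4420 to 5629 CPM, with 3 of 10 called higher in ventral (Sst, Pvalb and Lhx6). Gad1, Npy, Cck and Reln were also higher in ventral at an adjusted p below 0.05 by edgeR, but under the fold threshold. Gad2, Slc32a1 and Vip did not pass, and Gad2, with the highest CPM of this list, had means of 2853 and 3174 CPM. Granule cell markers summed to 924 to 1134 and 1003 to 1272 CPM, with 1 of 5 called in each direction. The CA pyramidal cell markers summed to 202 to 307 and 175 to 261 CPM, with 1 of 6 called higher in dorsal. Microglial markers were low, at 30.8 to 45.9 and 21.9 to 44.7 CPM, with 2 of 10 called higher in dorsal, and so were endothelial markers, at 19.7 to 86.0 and 26.1 to 91.2 CPM with none of 8 called. No marker was at 0 in all libraries. The part of astrocyte, oligodendrocyte and interneuron RNA, and of the share outside genes, in the levels of the glycogen genes was not tested.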

How the data were processed

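RNA of 10 TRAP libraries was sequenced as paired ends. Per the labels, cDNA was amplified with the Ovation kit and TruSeq libraries were built, and the authors mapped the reads to GRCm38 by STAR 2.5.2b, with HTSeq 0.7.2 giving the counts of each Ensembl gene; the deposited values are raw counts, not normalized or filtered. The annotation release and the strand setting are not given in the sources used here. Symbols, positions and exonic lengths came from GENCODE, which matched 54809 of 54838 identifiers. Groups and replicate numbers came from the sample titles. A replicate is a pool, and p-values measure the spread between pools. The main test treated dorsal and ventral pools as unpaired, although both can come from the same mice.

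The analysis used edgeR 4.0.16 under R 4.3.3: CPM above 1 in at least 2 libraries, TMM scaling and the quasi-likelihood test with p-values adjusted by Benjamini-Hochberg across every gene tested. Standard errors are the log2 fold change over the square root of F. CPM uses TMM-scaled library sizes. The fit was tested on simulated data. The 9 genes, the pathway and marker lists and the tests were chosen with earlier results of these data known. Named genes are these 9, the pathway list by role, markers given beside a result, and the 5 genes most like Ppp1r3b by each of 2 measures. Library pairs within a group differed by 4.36 to 45.1 times sampling noise (chi-square over its degrees of freedom), so none was a duplicate. No library was left out. Of the pathway list, 2 genes are counted but not reported here by name. Alternatives were other scalings, filters, thresholds and tests (DESeq2 1.42.0 among them), a GC and length correction (mgcv 1.9.3), a replicate block, the share outside genes as a covariate and each library left out. Leaving out Slc1a2 and the dispersions of edgeR's older version were chosen after the data were seen.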

Additional observations from a re-analysis of the deposited data

Results flagged for a closer look

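Of 94 groups of 5 libraries examined (47 glycogen and pathway genes in each group), 13 had a library whose gap to its nearest neighbour exceeded Dixon's 95% critical value of 0.710 times the whole range, where chance flags about 1 in 20 groups. Of the 13, 6 were in dorsal replicate 2, 3 in ventral replicate 3, 2 in ventral replicate 2 and 1 each in dorsal replicates 1 and 3. Causes were not tested.

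In dorsal replicate 2, Ppp1r3e (7.47 CPM, next 26.7), Pgm1 (9.81 CPM, next 18.3) and Stbd1 (0.325 CPM, next 1.41) lay below the other dorsal libraries. Pygl (7.08 CPM, next 1.69) and Prkag1 (23.3 CPM, next 17.2) lay above them there. Ppp1r3a had 0.065 CPM in the same library and 0.088 CPM in ventral replicate 2, each from 1 count, with the other libraries at 0. The flags of Ppp1r3a follow from 1 count beside 0 and carry no weight for either library.

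In ventral replicate 3, Ppp1r3d (2.45 CPM, next 0.880) and Gys2 (6.59 CPM, next 2.69) lay above the other ventral libraries and Prkaca (171 CPM, next 246) below. Phkg2 in ventral replicate 2 (9.51 CPM, next 5.62) was high. Ppp1r2 in dorsal replicate 3 (257 CPM, next 274) and Gaa in dorsal replicate 1 (24.7 CPM, next 70.8) were low.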

How the results depend on the processing

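Under the alternatives run, the log2 fold changes of Ppp1r3b (4.03 to 5.21), Ppp1r3e (1.11 to 1.94), Ppp1r3f, Gbe1, Pygb and Pygm kept their direction. With the percentage of pairs outside genes in the model, Ppp1r3c moved to -0.34, Ppp1r3f to 1.76 and Gys1 to 0.84, Epm2aip1 reversed to 0.043, the calls over all genes fell to 834 (dorsal) and 339 (ventral) from 2636 and 1655, and the calls in the pathway list fell to 0 and 0. None of the 10 pathway genes with an adjusted p below 0.05 kept it there, although some fold changes were about as large or larger with wider errors, such as Ppp1ca at -0.45 (SE 0.22), Prkaa1 at 0.38 (SE 0.25), Gsk3a at -0.48 (SE 0.24) and Prkag1 at -0.84 (SE 0.33). This share separates the groups, so its part and that of the groups cannot be told apart. At an adjusted p below 0.01 there were 1498 and 897 calls, and 1 pathway gene was called higher in dorsal libraries. Protein-coding genes alone gave 1665 dorsal calls.

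The pathway genes called higher in ventral libraries numbered 7 without the fold threshold, 2 with DESeq2's test and with edgeR's likelihood-ratio test (Prkacb and Pgm2), and 3 with GC and length offsets, with or without the replicate block (Prkacb, Prkaa2 and Epm2aip1). Leaving out libraries in turn gave 1 to 3: Prkaa2 joined without dorsal replicate 1, Pygl and Prkag1 without dorsal replicate 2, and Pgm2 without ventral replicate 1. Over all genes, leaving out libraries gave 2105 to 2670 dorsal and 1216 to 1815 ventral calls. The covariate included, Epm2aip1 lost its adjusted p below 0.05 in 16 of 22 alternatives, Gsk3a in 8, Prkaa1 and Prkag1 in 7 and Prkaca in 3. With no filter the median log2 fold change of all genes was 0.11. Genes near 1 CPM (Ppp1r3d, Ppp1r3f, Pygm and ventral Ppp1r3b) are limited by depth.

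Whether equal replicate numbers mark the same mice is not stated. Deviations from the group means correlated at 0.0159 on average for equal numbers and -0.0021 for unequal ones. With so few equal-number pairs, these averages cannot decide whether the libraries are paired. The replicate block narrowed some standard errors, as for Gys1 (0.21, from 0.42), and widened others, as for Ppp1r3e (0.36, from 0.32). With the replicate block there were 2656 dorsal and 1674 ventral calls, 2 and 1 of them in the pathway list, and Ppp1r3b had a log2 fold change of 4.72 (SE 0.64).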
